A study of Mus musculus with 6 samples.

Results

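Skeletal muscle lineage cells were chosen in 6 single-cell RNA libraries of mouse dorsal skin, and 123 of 34834 cells qualified, which is 0.353%. A cell qualified with at least 5 raw UMIs (unique molecular identifiers, each standing for 1 captured RNA molecule) summed over Des, Myf5, Myod1, Pax7, Chodl, Cdh15, Acta1, Tnnt3 and Ckm. It also had under 2 UMIs of the pericyte and smooth muscle genes Rgs5, Notch3, Kcnj8, Abcc9 and Myh11, and under 20 UMIs of the keratinocyte genes Krt5 and Krt14. Cells below 500 UMIs or 300 genes, or with over 10% of UMIs from mitochondrial genes, were left out. Because these values chose the members, the levels of the 9 genes are a description and were not tested.

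The animals were male wild-type C57BL/6 mice of 8, 26 or 52 weeks of age. Each age had 1 library of untreated skin and 1 of skin exposed outside the body to PBMC-sec, the secretome of γ-irradiated mononuclear cells of peripheral blood. Each library pooled 3 animals, and all passed through the same enzymatic whole-skin dissociation and through strainers. Untreated skin was dissociated at once and treated skin was kept ex vivo first, so the contrast combines PBMC-sec with the time outside the body, and these cannot be told apart. The labels give no dose or length of treatment and do not say whether the 2 libraries of an age came from the same animals. With 1 library per condition there was no test between conditions within the cells, and intervals cover counting error only. Lists of 6 values go from the youngest age to the oldest, and at each age give the untreated library before the PBMC-sec one.

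The skeletal muscle of mouse back skin is the panniculus carnosus, a thin sheet of mostly fast-twitch fibres under the dermis and fat. A fibre is one long cell with many nuclei, and its contractile apparatus is built from actin (Acta1), myosin heavy chains (the Myh genes), troponins (Tnnt3, Tnnc2, Tnni2) and the giant spring protein titin (Ttn). Satellite cells, the resident stem cells of muscle, lie between a fibre and its basement membrane and are marked by the transcription factors Pax7 and Myf5. On activation they raise Myod1, and those that go on to differentiate then express myogenin (Myog) and fuse.

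The libraries held 4083 to 9520 deposited barcodes, and 3686 to 9237 passed the cell filter with a median of 1128 to 4804 UMIs. The 8-week untreated library was the shallowest and stood apart. In it 3956 of 9237 cells, 42.8%, lay in fine clusters whose barcodes differed from one another by little more than counting noise, here called repeated barcodes. Of the other libraries, the 52-week untreated library had 46 repeated barcodes and the rest had 0. Pairs of libraries shared 27 to 82 barcodes, at most 1.39% of the smaller library, and 0 of the shared barcodes were members. The member results that the repeated barcodes move are therefore also given without them, while values over all other cells include them.

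The members numbered 35, 16, 18, 7, 20 and 27, or 0.379, 0.293, 0.323, 0.118, 0.543 and 0.546% of cells. Without repeated barcodes the 8-week untreated library had 11 members, or 0.208%. Members were told apart by their raw UMIs. A cell was fibre-like with at least 2 UMIs of Acta1 and Ckm and no fewer than of Myf5, Pax7 and Chodl. It was satellite-like with at least 2 UMIs of Myf5, Pax7 and Chodl and more of these than of Acta1 and Ckm, and undecided otherwise. Fibre-like cells were the majority at 91 of 123. Only 10 cells were satellite-like and 22 were undecided. Because they are so few, the 32 cells of these last 2 groups are described together below as the mononuclear-type members, a name for the rule's remainder and not a cell type call. Myf5 had 11 UMIs and Pax7 10 in the 10 satellite-like cells, against 2 and 5 in the 22 undecided ones. The grouping itself used both genes, so this difference follows from it.

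Just inside the rule's threshold, 18 cells had a sum of exactly 5 and 10 had a sum of 6. Just outside it, 43 cells had a sum of 4 and 81 had a sum of 3. At least 3 UMIs of 7 fibre genes that the rule did not use were found in 8 of the 18 cells at 5, in 17 of the 43 at 4 and in 8 of the 81 at 3. The limits on other genes removed 17 cells by the pericyte and smooth muscle genes and 26 by the keratins.

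Fibre-like cells expressed the program of fast muscle across contraction, energy supply and calcium handling. Of 19 genes of a fast contractile list that lay outside the rule and reached 10 UMIs in these cells, 17 had at least 10 times the summed CPM (UMIs per 1000000 UMIs of the same cells) of all other cells, with a median ratio of 248. Over all 4181 genes tested 2.65% passed that fold, with a median ratio of 1.19. Of 15 genes for fibre metabolism and calcium, 14 passed, with a median of 141. Without the repeated barcodes, 16 of 18 and 13 of 15 passed, against 2.01% of 3831 genes. The rule used Acta1, Ckm and Tnnt3, which rise and fall together with these genes in fibres, so the counts describe the chosen cells and test nothing.

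Acta1, skeletal α-actin, had 1075, 65, 472, 25, 181 and 169 UMIs in the fibre-like cells. Ckm, the muscle creatine kinase that buffers ATP, had 332, 21, 133, 4, 17 and 25 UMIs. Both were far higher in the 8-week and 26-week untreated libraries than in the other 4. Per cell, Acta1 had a median of 33, 4, 11, 5, 7 and 5 UMIs, and the ranges overlapped between all 6 libraries, since the lowest cell had 2 or 3 UMIs in each. Without the repeated barcodes the 8-week untreated sums were 67 UMIs of Acta1 and 7 of Ckm, the median cell had 5 UMIs of Acta1, and the highest cell had 16 instead of 150.

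Acta1 lies at chr8:123891769-123894751 on the minus strand and Ckm at chr7:19404776-19422841 on the plus strand (GRCm38, GENCODE). Their promoters are shown because these 2 genes define the fibre-like group. The 250 bases before each RefSeq start site (GRCm38.p6) are chr8:123894776-123895025 for Acta1 and chr7:19410844-19411093 for Ckm, each written 5′ to 3′ on the gene's own strand. Capitals mark the E-box CANNTG (a palindrome bound by MyoD-family factors), the CArG box of serum response factor and, on the gene's strand, TATAAA; no capitals overlap between motifs.
Acta1: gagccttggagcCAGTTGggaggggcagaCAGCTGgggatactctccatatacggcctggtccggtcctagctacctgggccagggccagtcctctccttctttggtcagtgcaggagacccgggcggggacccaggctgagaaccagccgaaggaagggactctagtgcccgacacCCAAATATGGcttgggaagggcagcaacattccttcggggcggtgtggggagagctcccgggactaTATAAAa
Ckm: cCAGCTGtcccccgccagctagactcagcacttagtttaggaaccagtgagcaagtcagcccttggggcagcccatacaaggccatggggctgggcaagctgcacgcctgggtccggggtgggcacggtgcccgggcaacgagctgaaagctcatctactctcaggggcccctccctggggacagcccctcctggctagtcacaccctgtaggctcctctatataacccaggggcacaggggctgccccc
The Acta1 window held 2 E-boxes, 1 CArG box and 1 TATAAA, and the Ckm window held 1 E-box. Among 32851 promoter windows of this length, 66.2% held an E-box, 1.47% a CArG box and 7.59% TATAAA. Of the fast contractile list, 18 of 24 genes had a promoter in the table, of which 14 held an E-box, 4 a CArG box and 3 TATAAA. These matches are letters in a window and say nothing of binding.

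The thick and thin filament genes named the fibre type. Tnnc2, fast troponin C, had 225, 17, 252, 26, 29 and 79 UMIs, Tnni2, fast troponin I, had 157, 12, 159, 13, 15 and 58, and Mylpf, the fast regulatory light chain, had 188, 23, 115, 9, 46 and 102. The fast type IIb myosin Myh4 had 64, 0, 27, 0, 0 and 0 UMIs, and the type IIx myosin Myh1 had 45, 1, 11, 1, 3 and 3. Without repeated barcodes the 8-week untreated library had 6 UMIs of Tnnc2, 8 of Tnni2, 13 of Mylpf, 0 of Myh4 and 2 of Myh1. Outside the repeated barcodes Myh4 in fibre-like cells was thus counted in the 26-week untreated library and at 0 in the other 5. This holds for the fibre-like cells and not for the whole libraries. Over all cells past the filter, repeated barcodes included, Myh4 had 114, 25, 39, 28, 1 and 20 UMIs. In the fibre-like cells the slow myosin Myh7 was at 0 in all 6 libraries, as were the slow light chains Myl2 and Myl3. Reads can be split among the near-identical Myh genes, so the division between Myh4 and Myh1 is uncertain.

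Ttn, titin, had 260, 3, 57, 4, 1 and 6 UMIs, and Ryr1, the calcium release channel of the sarcoplasmic reticulum, had 18, 0, 9, 0, 1 and 0. Among genes of energy supply, Car3, carbonic anhydrase of muscle, had 111, 2, 22, 4, 6 and 9, and the muscle enolase Eno3 had 104, 2, 23, 4, 4 and 11. Myoglobin, Mb, was more even with 20, 3, 31, 1, 8 and 16 UMIs. Without repeated barcodes the 8-week untreated library had 3 UMIs of Ttn, 0 of Ryr1, 1 of Car3, 5 of Eno3 and 3 of Mb, so that each of the 5 had its highest sum in the 26-week untreated library. By the lowest ratio to other cells over the 6 libraries, the leading genes outside the rule were Csrp3, a Z-disc protein that senses strain, with 109 UMIs and a ratio of 367, Tcap, the titin cap, with 87 and 251, and Mb with 79 and 300. Without repeated barcodes they had 57 UMIs and a ratio of 228, 65 and 242, and 62 and 269.

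Fibre content per cell separated the fibre-like cells into unlike sorts. The 7 fibre genes outside the rule (Mylpf, Tnnc2, Tnni2, Myh4, Myh1, Atp2a1 and Pvalb) made up a median of 1.98, 0.145, 1.40, 0.317, 0.191 and 0.151% of a fibre-like cell's UMIs. In all other cells the median was 0 and the 99th percentile lay between 0.0846 and 0.185%. At least 1% was reached by 42 of 91 fibre-like cells (22, 3, 9, 2, 3 and 3), which were small with a median of 1082 UMIs, and 3 of them carried markers of another cell type. The other 49 cells had a median of 2206 UMIs, and 25 of them carried such markers: 13 had at least 10 UMIs of fibroblast genes and 6 had at least 3 UMIs of T cell genes. The label of a muscle fibre thus fits the marker levels of the first 42 cells, while 25 of the other 49 held the RNA of another cell type beside their muscle UMIs.

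**Figure D1:**
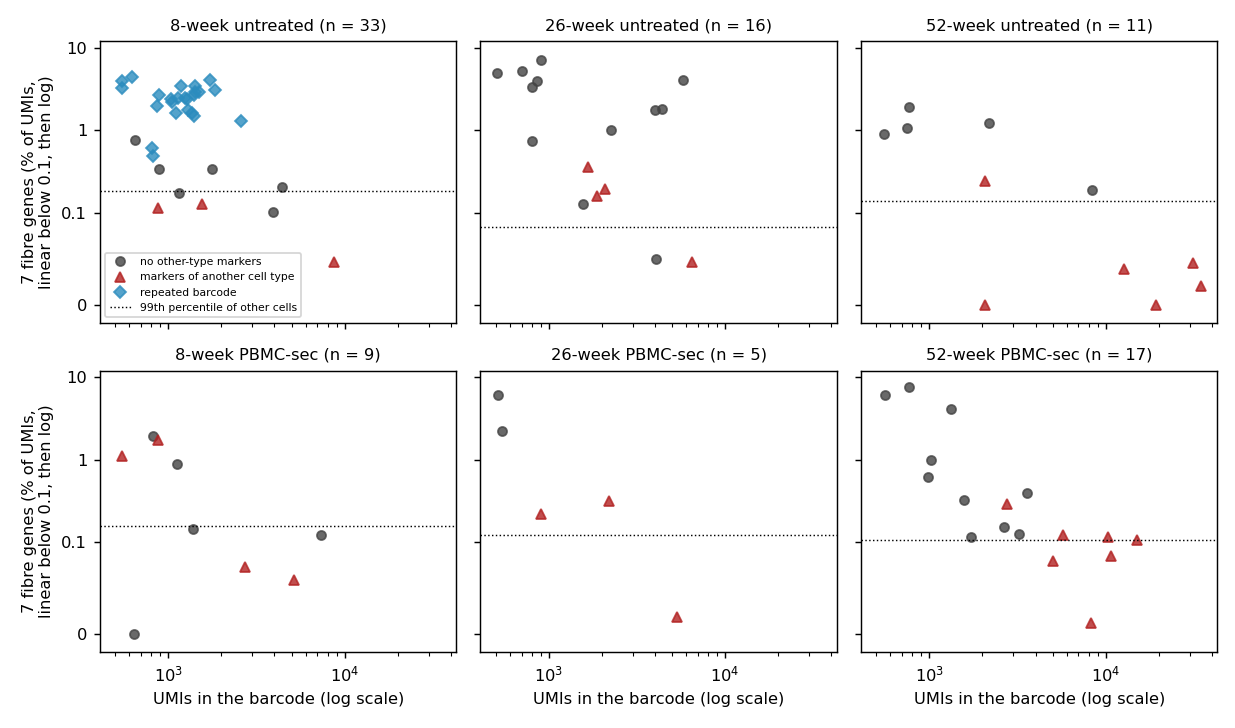
Share of UMIs from 7 fibre genes outside the rule against the UMIs of each fibre-like cell, 1 panel per library; diamonds are repeated barcodes, triangles carry markers of another cell type, circles are the rest, and the dotted line is the 99th percentile of all other cells. Cells at or above 1% are mostly small and free of other markers, and 22 of these 42 are repeated barcodes of the 8-week untreated library.

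Muscle RNA was also found thinly in other cells, which bears on the cells near the threshold. Acta1 had a UMI in 9.73, 8.21, 2.91, 6.19, 8.05 and 8.39% of all other cells, whose median depth was 1127 to 4807.5 UMIs, most of which are not muscle. Without repeated barcodes the 8-week untreated share was 8.99%. Members held 39.8% of all Acta1 UMIs and 41.1% of all Ckm UMIs. For Myod1 the share of other cells with a UMI was 0.0610 to 0.386%, and members held 73.8% of its UMIs. A UMI of a fibre transcript outside the members was therefore far more common than a UMI of Myod1 in each library.

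Of the 33 fibre-like cells of the 8-week untreated library, 24 were repeated barcodes, and 21 of these lay in a single fine cluster of 22 barcodes. These 21 had 546 to 1835 UMIs, 6 to 150 UMIs of Acta1, 1.496 to 4.49% of their UMIs from the 7 fibre genes and a median of 0.708% mitochondrial UMIs. Left without the repeated barcodes were 9 fibre-like cells, with a median fibre content of 0.173%. The abundance of fibre-like cells in untreated young skin, and its high Acta1, Ckm, Myh4 and Ttn, thus rested on barcodes that share nearly the same profile. Whether they came from many fibres or from few was not tested.

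More fibre-like barcodes failed the cell filter than passed it. Of 1708 deposited barcodes that failed, 160 met the gene criteria (24, 42, 11, 34, 39 and 10), and 159 of them were fibre-like and 0 satellite-like. In 156 of the 160 the failure included more than 10% mitochondrial UMIs, with a median between 42.8 and 64.0% by library. Damaged cells hold a high mitochondrial share and fibres also contain mitochondria, so the kinds of barcode removed cannot be told apart here. Fibre-like cells past the filter had at most 10% by definition. Their median mitochondrial share was 0.717% in the 42 with at least 1% of UMIs from the 7 fibre genes and 2.17% in the other 49. The source of the high share in the failed barcodes was not tested. Counting every deposited barcode gave 57, 51, 27, 39, 49 and 27 fibre-like barcodes.

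**Figure D2:**
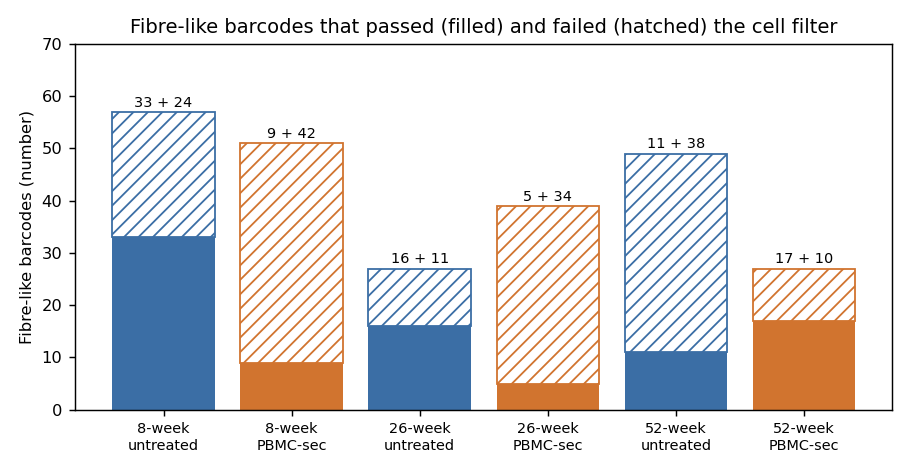
Number of fibre-like barcodes per library that passed (filled) and failed (hatched) the cell filter, with both numbers above each bar; blue is untreated and orange PBMC-sec. In the 8-week and 26-week PBMC-sec and 52-week untreated libraries most fibre-like barcodes failed, whereas in the other 3 most passed. In the 8-week untreated library 24 of the 33 that passed were repeated barcodes. Without them 9 passed there against 24 that failed.

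Among cells past the filter, the share of fibre-like cells was 0.357% untreated and 0.165% with PBMC-sec in 8-week skin. It was 0.287 and 0.0844% in 26-week skin and 0.298 and 0.344% in 52-week skin. The log2 ratios of treated to untreated were -1.12, -1.76 and 0.20, with a mean of -0.89 ± 1.003 (SD, n = 3 ages), which an exact two-sided sign-flip permutation test did not separate from 0 (p = 0.5; the smallest p that 3 ages allow is 0.25). Without repeated barcodes the ratios were -0.05, -1.76 and 0.18. Among all deposited barcodes each age turned its direction, with 0.57, 0.43 and -1.22. The sign of the ratio thus differed between cells past the filter and all deposited barcodes at every age. At 8 weeks the value past the filter rested on repeated barcodes, and the value over all deposited barcodes includes them. At 52 weeks the value past the filter rested on 11 untreated and 17 treated cells.

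For all members together the log2 ratios were -0.37, -1.45 and 0.01, with a mean of -0.60 ± 0.76 (SD, n = 3 ages) and p = 0.5 in the same exact permutation test. Without repeated barcodes they were 0.49, -1.45 and -0.01, with a mean of -0.32 ± 1.01 and an exact permutation p of 0.75, so the 8-week direction turned. Fewer muscle cells released from the tissue and less muscle RNA per cell cannot be told apart from these shares.

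**Figure D3:**
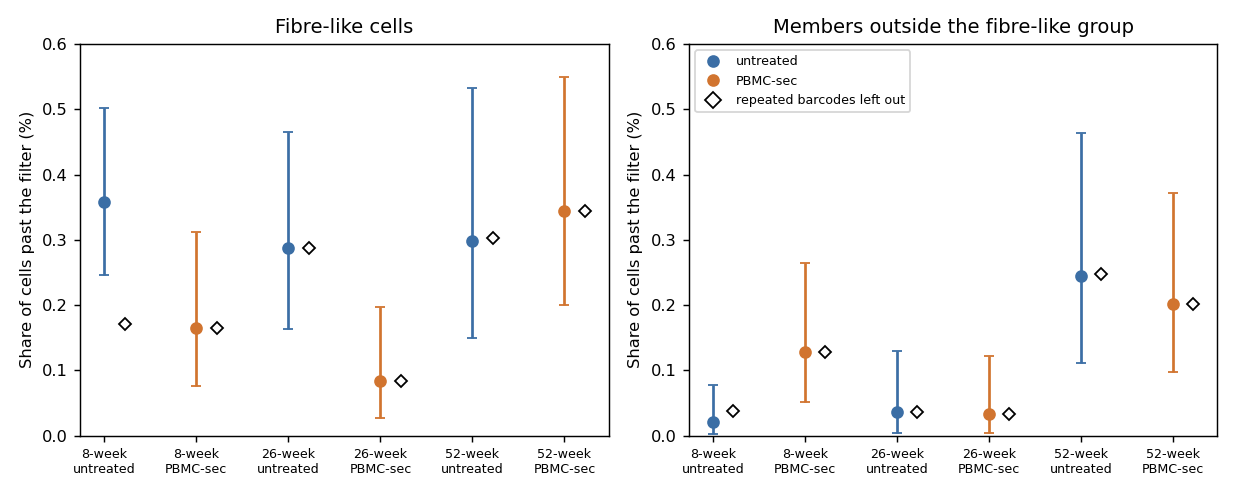
Share of cells past the filter (%) that were fibre-like (left) and mononuclear-type members (right) per library, with exact 95% binomial intervals; blue is untreated, orange PBMC-sec, and open diamonds leave out repeated barcodes. On the left the 8-week untreated share falls from 0.357 to 0.170% without repeated barcodes, and on the right both 52-week libraries lie highest.

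The mononuclear-type members were defined by Myod1 and desmin far more than by the satellite cell genes the rule names. Myod1, the master regulator of muscle commitment, was found in 26 of the 32 cells with 16, 47, 5, 7, 34 and 66 UMIs. Des, the intermediate filament of muscle, was found in 27 cells with 2, 18, 3, 7, 36 and 72 UMIs. Pax7 had 15 UMIs in 10 cells and Myf5 13 UMIs in 8 cells, so 15 of the 32 held a UMI of at least 1 of them. The 32 cells summed to 7 UMIs of Acta1, 1 of Ckm and 0 of Myh4. Low Acta1 and Ckm follow from the fibre-like call, which took out the cells that held them. The sum of at least 5 UMIs thus had to come mostly from the other genes of the rule. The cells were larger than fibre-like ones, with a median of 5125.5 UMIs against 1416, and had a like median share of mitochondrial UMIs (1.41 against 1.40%).

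Some muscle genes outside the rule were high in these cells too. Of 13 genes of a satellite cell list with at least 10 UMIs, 5 had at least 10 times the summed CPM of other cells, with a median ratio of 5.51; over all 3197 genes tested 2.5% passed, with a median of 1.49. The 5 were Fgfr4, a fibroblast growth factor receptor of myoblasts (11 UMIs, ratio 258), Asb5, a ubiquitin ligase adaptor (24, 188), Peg3, an imprinted zinc finger factor (26, 47.3), the adhesion molecule Ncam1 (33, 28.8) and Edn3, endothelin 3 (28, 97.6). Of the 28 Edn3 UMIs, 27 were in the 2 Chodl cells described below. Without Edn3 the count is 4 genes. The rule chose these cells by Myod1, Des, Pax7 and Myf5, genes of the same lineage, so the counts describe the chosen cells and test nothing. Chrna1, the α subunit of the muscle acetylcholine receptor, had 30 UMIs in 6 cells with a ratio of 117, and Chrnb1, its β subunit, had 11 in 9 with a ratio of 30.6.

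Of 33 genes of the satellite cell list outside the rule, 4 were at 0 in these cells. Calcr, the calcitonin receptor of quiescent satellite cells, was at 0 in the 32 cells, whose 225308 UMIs put its limit at 13.3 CPM. Of 28 genes of a myogenic commitment list, 6 reached 10 UMIs, of which Chrna1 and Chrnb1 passed the 10-fold mark, and 6 were at 0, among them Myog and the embryonic myosin Myh3. The 7 Myog UMIs among members lay in 2 fibre-like cells of the 26-week untreated library, with 29 and 33 UMIs of Acta1, 19 and 10 of Des and 0 of Myod1. Vcam1, an adhesion molecule of satellite cells, was present with 42 UMIs in 14 cells, and Itga7, the integrin that ties muscle cells to laminin, with 53 UMIs in 15 cells.

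By the lowest ratio over the 6 libraries, Myod1 and Des led among genes with at least 50 UMIs, and Lgals1, galectin 1, came next with 1187 UMIs in 29 cells at 13.4 times the CPM of other cells. Vim, vimentin, had 925 UMIs in 29 cells at 5.38 times, Serpinh1, the collagen chaperone, 280 in 27 cells at 9.26 times, and the tetraspanin Cd82 78 in 19 cells at 10.6 times. Lgals1, Vim and Serpinh1 are also genes of fibroblasts, and 3 of the 32 cells had at least 10 UMIs of the 6 fibroblast markers. Endothelial, Schwann cell and mast cell markers summed to 1, 1 and 0 UMIs over the 32 cells. The smooth muscle genes Acta2 and Tagln, which the rule did not limit, summed to 40 UMIs, with 22 of Acta2 in 6 cells and 18 of Tagln in 5. Neutrophil markers summed to 52 UMIs, of which 51 were in 1 cell described below. The part of these markers in the genes above was not tested.

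**Figure D4:**
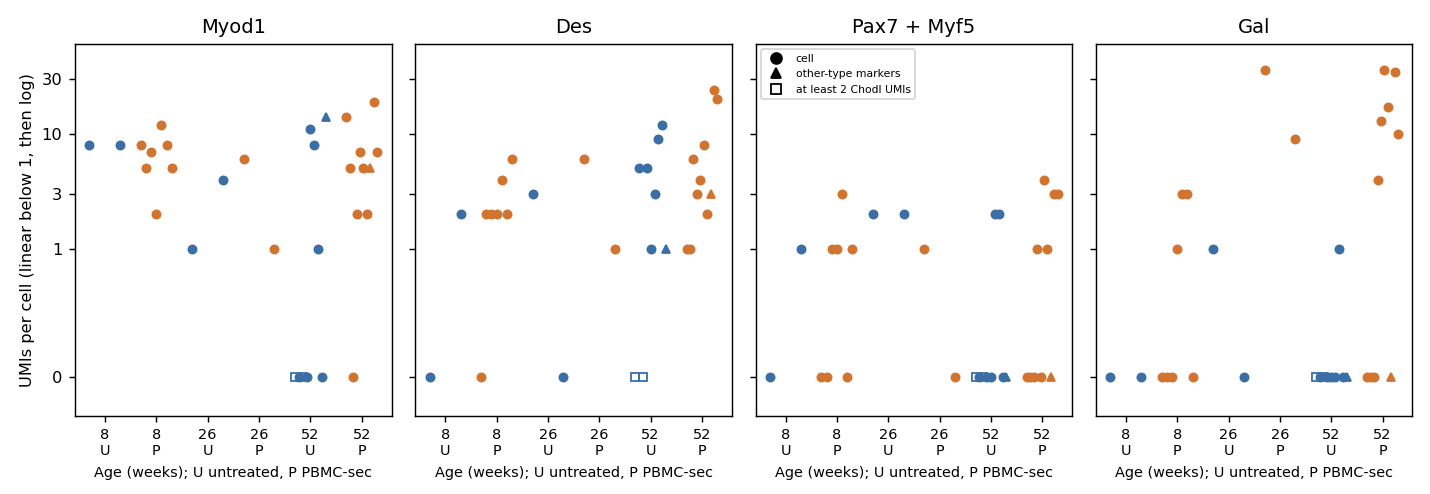
UMIs per cell of Myod1, Des, Pax7 with Myf5, and Gal in the 32 mononuclear-type members by library (blue untreated, U; orange PBMC-sec, P); triangles carry markers of another cell type and open squares have at least 2 Chodl UMIs. Myod1 is found in both treatments, whereas every cell with more than 1 Gal UMI is from a PBMC-sec library.

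The mononuclear-type members numbered 2, 7, 2, 2, 9 and 10, or 0.0217, 0.128, 0.0358, 0.0338, 0.244 and 0.202% of cells. The 52-week libraries held 19 of the 32. The ratio of the 52-week to the 8-week share was 11.3 in untreated skin, or 6.53 without repeated barcodes, and 1.58 in treated skin. Without cells that carry markers of another type, the untreated counts were 2 at 8 weeks and 6 at 52 weeks. The treated counts were then 7 and 9. Myod1 was found in only 4 of the 9 untreated 52-week cells, against 9 of the 10 treated ones. With 1 library per age these ratios have no test. Depth moved with this result, from a median of 1128 UMIs per cell to 3064, and a sum of 5 UMIs is reached more easily at depth. The genes of the rule made up 0.0538 to 0.774% of the UMIs of these 32 cells, with a median of 0.192%, so that 1000 UMIs seldom hold 5 of them. After thinning every cell to 1000 UMIs only 2 such members remained, 1 in each of the 26-week and 52-week PBMC-sec libraries, and thinning says nothing of the age difference. The part of depth in it was not tested.

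For PBMC-sec the log2 ratios of the share of mononuclear-type members were 2.57, -0.09 and -0.27 at 8, 26 and 52 weeks (mean 0.74 ± 1.59, SD, n = 3 ages; exact two-sided sign-flip permutation p = 1). They rested on 2 to 10 cells per library, and without repeated barcodes the 8-week ratio was 1.76. As a share of members these cells were 5.71, 43.75, 11.1, 28.6, 45 and 37.0%. The first of these shares was 18.2%, or 2 of 11, without repeated barcodes.

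Gal, the neuropeptide galanin, had nearly all of its UMIs in treated cells among these members; it was picked out after its values were seen. It lies at chr19:3409915-3414544 on the minus strand. Its UMIs were 0, 7, 1, 45, 1 and 114, found in 0 of 2, 3 of 7, 1 of 2, 2 of 2, 1 of 9 and 6 of 10 cells. Treated cells held 166 of its 168 UMIs. At 26 weeks Gal was 5507 CPM with PBMC-sec and 89.6 untreated, a ratio of 61.4 (exact 95% counting interval 10.5 to 2480). There 1 treated cell held 36 of the 45 UMIs. At 52 weeks Gal was 1185 and 14.3 CPM, a ratio of 83.0 (14.6 to 3306). The 2 sides were unlike in kind at 52 weeks, since Myod1 was found in 9 of the 10 treated and 4 of the 9 untreated cells. The part of this in the Gal ratio was not tested. At 8 weeks Gal was 220 CPM in treated cells, and the 0 UMIs of the 7915 in untreated cells allow up to 379 CPM, so no difference was detectable at this depth.

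Of all other cells, 12 of 9202, 47 of 5443, 26 of 5561, 52 of 5917, 31 of 3666 and 33 of 4922 had a Gal UMI. Summed over all other cells of a library, Gal was 1.79, 9.49, 2.53, 3.74, 3.92 and 3.42 CPM, with treated to untreated ratios of 5.31, 1.48 and 0.873 at the 3 ages. At 26 weeks the treated cells were the shallower ones, with 3878 and 4293 UMIs against 5180 and 5977. At 52 weeks, 5 of the 10 treated cells were among the barcodes with the highest doublet scores; without them and the like untreated cells, 27 UMIs in 2 of 5 cells gave 551 CPM against 15.4. Without cells that carry markers of another type the 52-week values were 1326 and 23.9 CPM. Of the cells then left, 8 of 9 treated and 3 of 6 untreated ones had a Myod1 UMI. With 1 library on each side, no spread between animals or cultures stands behind these ratios.

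Akr1b3, aldose reductase, was also picked out after its values were seen, as 1 of the leading genes. In the mononuclear-type members it was 253, 1857, 717, 1101, 186 and 1891 CPM, with ratios of 7.35 (1.95 to 62.1), 1.54 (0.526 to 4.58) and 10.2 (5.81 to 19.5). All other cells showed the same direction at each age, with 35.0, 746, 40.2, 508, 38.5 and 685 CPM. For Myod1 itself the ratios were 0.732 (0.407 to 1.38), 1.91 (0.522 to 7.64) and 1.41 (0.921 to 2.20), and each interval included 1. Des likewise had ratios of 2.24, 3.19 and 1.46 with intervals that included 1. Vim had ratios of 0.371 (0.257 to 0.540), 0.621 (0.313 to 1.17) and 0.419 (0.360 to 0.487), and in all other cells 0.890, 0.494 and 0.265. Without cells that carry markers of another type the 52-week Vim ratio in the mononuclear-type members was 0.506 (0.419 to 0.610).

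A few of the mononuclear-type members carried the transcripts of dividing cells. At least 5 of 19 cell cycle genes had a UMI in 5 of the 32 cells, 1 at 8 weeks with PBMC-sec, 1 at 52 weeks untreated and 3 at 52 weeks with PBMC-sec. Of all other cells 3.79% did, and 5.97% of those with at least the 1547 UMIs of the shallowest of the 32. The 5 cells had 7051 to 22039 UMIs, so neither share is matched to them in depth. Top2a, the topoisomerase of dividing cells, had 0, 1, 0, 0, 2 and 26 UMIs, of which 18 lay in 1 treated 52-week cell of 22039 UMIs with 19 UMIs of Myod1 and 34 of Gal. That cell was also among the highest doublet scores, as was another of the 3 treated 52-week cells, with 8272 UMIs. Summed over the list, cell cycle genes took 0.0505, 0.145, 0.0269, 0.0490, 0.0657 and 0.207% of UMIs, against 0.0356 to 0.0619% in other cells. In the treated 52-week library the cell of 22039 UMIs held 122 of the 199 cell cycle UMIs, and the share without it was 0.104%. In the treated 8-week library 1 cell held 30 of 46, and the share without it was 0.0683%.

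Chodl, chondrolectin, went against its use as a satellite cell marker in this skin. Members held 12 of its 72 UMIs, and 11 of the 12 lay in 2 satellite-like cells of the 52-week untreated library that had 0 UMIs of Myf5, Pax7, Myod1 and Des. The first of these cells had 6 UMIs of Chodl with 4 of Corin, 16 of Hhip, 13 of Scube3 and 26 of Rspo3. The second had 5 of Chodl with 16, 33, 39 and 14 of those genes. Corin, Hhip, Scube3 and Rspo3 are known from the dermal papilla of the hair follicle and were chosen after their values were seen. Each of the 2 cells had 17 fibroblast marker UMIs.

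Over all cells, 27 of the 40 with a Chodl UMI also had Corin, Hhip or Scube3, and 2 had Myf5, Pax7 or Myod1. Of the 72 Chodl UMIs, 61 were in the 52-week untreated library and 8 in the 52-week PBMC-sec library. Leaving out these 2 cells leaves 8 satellite-like cells, and each of the 8 held Myod1. Because Myod1 counts toward the sum that chose the members, this describes the cells and does not test their label. Chodl lies at chr16:78930948-78951733 on the plus strand.

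Other single cells also sat poorly under the label. Of the undecided cells at 52 weeks untreated, 1 with 14 UMIs of Myod1 had 490 fibroblast marker UMIs, and 1 that entered through 5 UMIs of Des had 51 neutrophil marker UMIs. At 52 weeks with PBMC-sec 1 cell with 5 UMIs of Myod1 had 27 macrophage marker UMIs. In the fibre-like group, 25 of the 45 Myod1 UMIs came from 1 cell of 31208 UMIs in the 52-week untreated library that also had 38 UMIs of Des, 35 of Acta1 and 56 of fibroblast markers. By the limits on fibroblast, keratinocyte, macrophage and T cell markers, 32 of the 123 members carried markers of another cell type, 28 of them fibre-like. Neutrophil markers were not part of these limits. The cell with 51 neutrophil marker UMIs is therefore not among the 32, and it stays in the values given without such cells.

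Cytokine UMIs of the fibre-like group were concentrated in a few deep cells. A list of 28 inflammatory cytokines and chemokines took 0.215, 1.65, 0.650, 3.28, 0.442 and 3.04% of fibre-like UMIs, higher with PBMC-sec at each age, against 0.760 to 1.41% in other cells. At 26 weeks, 306 of the treated 312 UMIs were in 1 cell with markers of another type. Without cells that carry such markers the shares were 0.214, 1.19, 0.248, 0.284, 0.238 and 3.11%, again higher with PBMC-sec at each age. Of these treated UMIs, 1 cell held 107 of 135 at 8 weeks and 1 held 414 of 540 at 52 weeks. At 26 weeks the 2 treated cells left had 3 UMIs. Over all fibre-like cells the median per cell was 0.0717, 0.325, 0.160, 0.193, 0.336 and 0.303%, higher with PBMC-sec at 8 and 26 weeks and lower at 52 weeks. Without repeated barcodes the 8-week untreated sum was 0.372%. A list of 20 NRF2 antioxidant targets took 1.43, 2.15, 2.30, 6.42, 1.51 and 5.12% of fibre-like UMIs, and 1.17% in the 8-week untreated library without repeated barcodes. Without cells that carry markers of another type, its values were 1.60, 1.91, 2.11, 1.04, 2.41 and 5.30%, higher with PBMC-sec at 8 and 52 weeks and in the opposite order at 26 weeks, where 2 treated cells were left.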

How the data were processed

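Dorsal skin was dissociated and cells were captured with Chromium Next GEM 3′ reagents (v3.1), per the labels. The deposited matrices hold raw UMI counts per gene and barcode, written by Cell Ranger 5.0.1 per the file headers, and the authors' barcodes had already been called as cells. The build was mm10 (GRCm38) per the submitters' processing notes; the annotation release was not given in the sources used here. Gene positions come from GENCODE on GRCm38 and promoters from RefSeq.

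Members were found by the rule with Python 3.11.15, numpy 2.4.6, scipy 1.17.1 and pandas 2.3.3. Groups were compared by summed UMIs per 1000000, and a gene was tested with at least 10 UMIs in the members' group. A group at 0 was given a limit of 3 UMIs. Shares have exact (Clopper-Pearson) 95% binomial intervals, and ratios of 2 libraries have exact conditional binomial intervals. Neither covers variation between animals. Scrublet in scanpy 1.11.5 called 0 doublets in each library, so the highest scores were removed at 0.8% per 1000 barcodes as an alternative only. Repeated barcodes were fine clusters (Leiden, resolution 5) of at least 10 barcodes with a Pearson dispersion of at most 2. Markers of another cell type meant at least 10 UMIs of fibroblast, keratinocyte or macrophage markers, or at least 3 of T cell markers. The ratio calculation was tested on simulated data.

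The members and all gene lists were chosen with earlier results of these data known. Genes were named as members of the rule, as the more abundant genes of the lists, or as leading genes by the lowest ratio over the libraries; exceptions are marked. Fits across genes were planned only for groups with at least 10 cells in both libraries of at least 2 ages. Only the 52-week fibre-like pair (11 and 17 cells) had them, so no fit was made and no adjusted p is given. Of the 470 genes of the lists, 2 were not analysed here.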

Additional observations from a re-analysis of the deposited data

Results flagged for a closer look

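The PBMC-sec difference in shares was not alike at different ages. Each age is 1 pair of libraries and the difference between ages was not tested. For all members the log2 ratio of treated to untreated was -0.37 at 8 weeks and -1.45 at 26 weeks against 0.01 at 52 weeks. Without repeated barcodes it was 0.49, -1.45 and -0.01, so the 8-week direction turned. At 52 weeks the 2 shares were nearly equal both with and without repeated barcodes. For fibre-like cells it was -1.12 and -1.76 against 0.20, and -0.05, -1.76 and 0.18 without repeated barcodes. For the cells outside the fibre-like group it was 2.57 at 8 weeks, or 1.76 without repeated barcodes, against -0.09 at 26 and -0.27 at 52 weeks. As a share of members, the latter group had 2.94 and 1.36 at 8 and 26 weeks against -0.28 at 52 weeks, and the 8-week value was 1.27 without repeated barcodes. In addition, signals lay outside the cells described: 160 barcodes met the gene criteria but failed the cell filter, and 60 Chodl UMIs were in cells that were not members.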

How the results depend on the processing

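The number of members, 123, was 247 with a muscle sum of at least 3, 74 with at least 10, 38 after thinning and 283 over all deposited barcodes. In the same order, satellite-like cells, 10, became 17, 6 and 0, and 10 over all barcodes; fibre-like cells, 91, became 177, 58, 36 and 250; undecided cells, 22, became 53, 10 and 2, and 23 over all barcodes. A split from 4 UMIs gave 3 satellite-like and 38 undecided cells, and a split from 1 UMI gave 12 undecided. Asking for 1% of UMIs from 7 fibre genes left 42 fibre-like cells. The mean log2 ratio of PBMC-sec to untreated shares, -0.60 for members and -0.89 for fibre-like cells, turned to 0.0604 and 0.0454 with a sum of at least 3, and for members to 0.0227 over all barcodes. Leaving out 1 age pair gave -0.91 to -0.18 for members, -1.44 to -0.46 for fibre-like cells and -0.18 to 1.24 for the others, the negative value without the 8-week pair. No ratio was computed for fibre-like cells after thinning, or for the others after thinning or with a sum of at least 10, because a library held 0 cells. The cause was not tested. Alternatives chosen after seeing the data were those on all barcodes, on 1% fibre genes, on markers of another cell type on pooling satellite-like with undecided cells and on leaving the libraries unpaired. The planned fits across genes and their alternatives were not run for want of cells. The shares were paired by age. With no replicate block, the mean log2 ratios of -0.60, -0.89 and 0.74 keep their value by construction, and an exact two-sided permutation of 3 against 3 libraries gave p = 0.5, 0.3 and 0.8 (smallest possible 0.1). The depth of the 8-week untreated library limits counts of cells outside the fibre-like group there.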
